A study of Mus musculus with 2 samples.

Results

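Interferon-stimulated genes were followed through 2 single-cell libraries of mouse bone marrow stromal cells. The list held 34 gene symbols, each looked up by name in the deposited gene lists. Of these, 33 were found among 32286 features, and Mx1 was not found by name and is not analysed here. The genes were read as 3 groups. The type I type group held 8 genes (4 Ifit genes, Isg15 and 3 Oas genes). The gamma type group held 13 genes (6 Gbp genes, 6 immunity-related GTPase genes and Irf1). The remaining 12 genes are induced by either kind of interferon or encode parts of the pathway.

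Interferons are secreted proteins that warn cells of infection. Type I interferons act through the receptor IFNAR and a complex that includes STAT2 and IRF9 and binds the interferon-stimulated response element (ISRE) in promoters of genes such as Ifit1, Isg15 and Oas1a. Interferon gamma comes mainly from T and NK cells and acts through the receptor IFNGR, whose signal reaches promoters with a gamma-activated site (GAS). Irf1 is an early target of that signal, and its protein binds ISRE-like sequences in guanylate binding protein and immunity-related GTPase genes. The 2 programmes overlap, so most of these genes respond to both. In the marrow, CAR cells (Cxcl12-abundant reticular cells) are the stromal cells that supply CXCL12 and KITL to blood progenitors.

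Both libraries came from male mice that carried Adipoq-CreERT2, a tamoxifen-inducible Cre under control of the adiponectin gene, together with Ai9, a Cre-dependent tdTomato reporter that remains on after recombination. All mice received tamoxifen at 8 weeks of age on 3 days in a row. Bright tdTomato-positive cells of digested femur and tibia were sorted, 24 h after tamoxifen for the pulse group and 4 weeks after it for the chase group. Age at harvest thus differed too. In all 4 mice were used for 1 library per group, and how they were divided is unknown here. No difference between the libraries therefore has a replicate check and no test was possible. Time since tamoxifen, age, the mice and the library preparation cannot be told apart. Nor can the sort, in which bright cells made up 0.01% of the pulse and 0.29% of the chase cells.

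The pulse library held 10608 barcodes and 89009901 UMIs, where a UMI (unique molecular identifier) marks 1 captured transcript, and the chase library held 10046 barcodes and 82939659 UMIs. After filters, 9180 and 8322 cells were kept. Cells were gated into classes by the summed level of marker genes, and a class is written "X-like" for that reason. The gate cuts a continuous score, and 805 pulse cells (8.77%) and 658 chase cells (7.91%) lay within 0.05 of a cut. Of 20 cell types, 10 reached 50 cells in each library. The sort was for a stromal reporter, yet blood and endothelial classes were present. Their tdTomato ran from 95.4 CPM (chase primary granule progenitor-like) to 1213 CPM (pulse T or NK-like). Adipogenic CAR-like cells had 2124 CPM (pulse) and 2094 CPM (chase). CPM means UMIs of a gene per 1e+06 UMIs of its class. The libraries shared 52 barcodes.

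Adipogenic CAR-like cells were the largest class, with 3632 pulse cells (39.6%) and 3672 chase cells (44.1%). All 8 of their markers were detected, and 3 of them (Esm1, Adipoq and Kitl) were among the 10 genes that led the class. The cells of this class fell into different clusters in the 2 libraries. Clusters 0 and 4 held 2009 and 634 of the pulse cells but 41 and 34 of the chase cells. Clusters 1 and 3 held 1816 and 947 of the chase cells but 43 and 70 of the pulse cells.

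In adipogenic CAR-like cells the gamma type genes were higher in the chase library and the type I type genes were nearly level. The summed gamma type genes measured 955 CPM in the pulse library and 2105 CPM in the chase library, a chase-to-pulse ratio of 2.20 (95% counting interval 2.17 to 2.24). The summed type I type genes measured 257 and 279 CPM, a ratio of 1.09 (1.05 to 1.12). The remaining genes measured 1091 and 1055 CPM, a ratio of 0.966 (0.951 to 0.982), which rested on Bst2: without it they measured 428 and 538 CPM, a ratio of 1.26 (1.23 to 1.29). Type I over gamma was 0.269 in pulse and 0.133 in chase, and the chase value was 0.493 of the pulse value (0.476 to 0.510). That last ratio does not depend on how the libraries are scaled. All intervals are exact for counts and cover counting error only, neither the spread between mice nor that between library preparations.

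The call rule asked for a 1.5-fold difference, an interval without 1 and 50 or more UMIs in the compared sums together. Of the 33 genes, 31 had that depth in adipogenic CAR-like cells, 13 were called higher in chase and 0 lower. Over all 12903 genes of that depth the same rule called 7.02% higher and 6.57% lower. By group, 9 of 12 gamma type genes, 3 of 7 type I type genes and 1 of 12 remaining genes were higher. The median log2 ratio was 0.91 for the gamma type genes, 0.18 for the type I type genes and 0.30 for the remaining genes, beside -0.03 for all genes tested. The 2 genes under the depth limit were Oas2, with 24 pulse and 15 chase UMIs, and Tgtp1, with 3 and 11 UMIs.

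**Figure D1:**
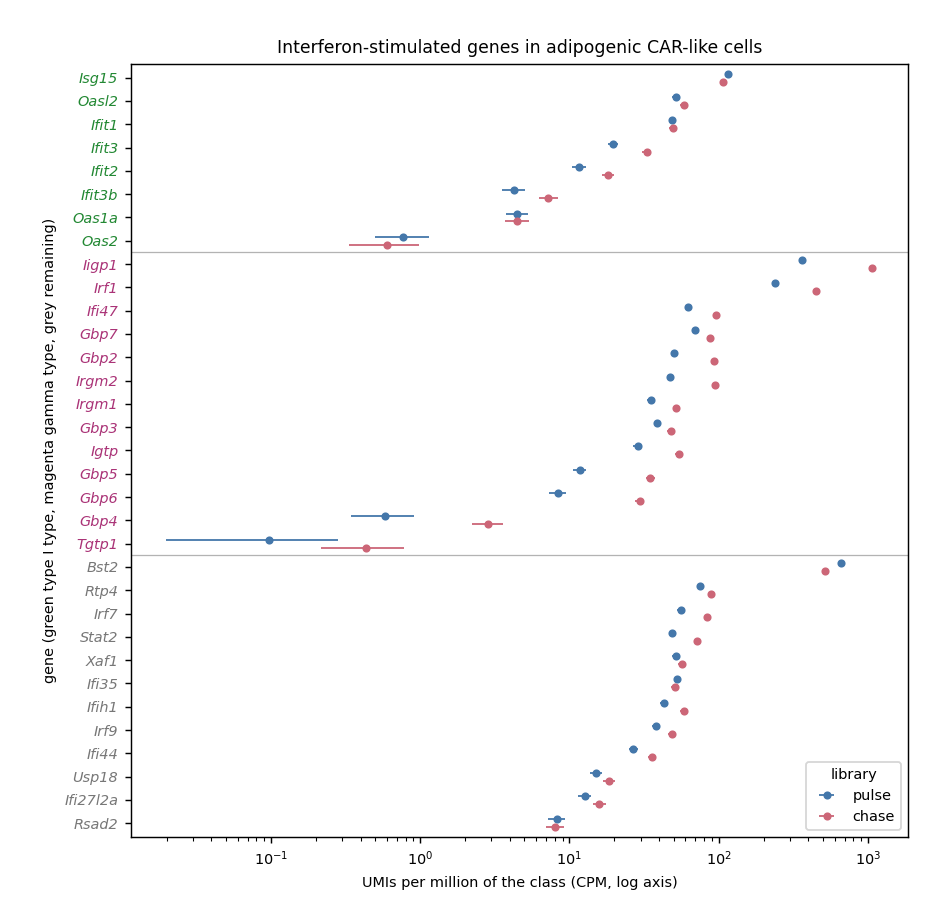
Level of each interferon-stimulated gene in adipogenic CAR-like cells, in CPM on a log axis, for the pulse (blue) and chase (red) libraries; bars are exact 95% Poisson intervals for counting error. Gamma type genes such as Iigp1 (365 against 1064 CPM) and Irf1 (238 against 447 CPM) lie to the right in chase, while Isg15 and Bst2 lie to the left.

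Within the type I type group, values differed by gene. Isg15, which encodes a ubiquitin-like protein that is attached to other proteins, measured 116 CPM in pulse and 108 CPM in chase (ratio 0.927, 0.881 to 0.974). Ifit1, whose protein binds foreign RNA ends, measured 48.6 and 49.5 CPM (ratio 1.02, 0.944 to 1.10). Oasl2 and Oas1a belong to the family of 2′-5′ oligoadenylate synthetases, which switch on RNA decay. Oasl2 measured 51.5 and 58.3 CPM (ratio 1.13, 1.05 to 1.21), and Oas1a measured 4.48 and 4.49 CPM (ratio 1.00, 0.775 to 1.29). None of these 4 passed the 1.5-fold limit in either direction.

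The other 3 Ifit genes of this group were the ones called higher. Ifit2 measured 11.6 CPM in pulse and 18.1 CPM in chase (ratio 1.57, 1.36 to 1.80). Ifit3 measured 19.6 and 33.1 CPM (ratio 1.69, 1.52 to 1.88). Ifit3b measured 4.25 and 7.23 CPM (ratio 1.70, 1.35 to 2.14). All 4 Ifit genes lie in a row on the plus strand of chromosome 19 (mm10), Ifit2 at chr19:34550694-34576419, Ifit3 at chr19:34583531-34588731, Ifit3b at chr19:34607970-34613401 and Ifit1 at chr19:34640871-34650009. The neighbouring Ifit1 thus had the lowest ratio of the 4. Isg15 supplied the most UMIs of the group, and without it the group measured 1.22 times its pulse level (1.17 to 1.27).

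Promoters were searched for an ISRE-type motif, GAAA and again GAAA parted by any 2 bases, on either strand, and a GAS-type motif, TTCNNNGAA, which reads the same on both strands. Of the 33 genes, 26 had an entry in the RefSeq table of promoters (GRCm38.p6), each from 250 bases before to 50 bases after the transcription start. The ISRE-type motif was in 17 of the 26 genes (65.4%), against 3.99% of all 27025 genes of the table. The GAS-type motif was in 10 of the 26 (38.5%), against 9.55% of all genes. By group, the ISRE-type motif was in 5 of 7 type I type and 8 of 10 gamma type genes, and the GAS-type motif in 2 of 7 and 6 of 10. Both motifs can overlap, as they did in Bst2. A match is a match of letters and no measure of binding.

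Promoters of Isg15 and Ifit1, with ratios near 1, are shown beside that of Ifit3, which was called higher, each as 80 bases upstream of the start with the ISRE-type motif in capitals (where capitals run on, copies overlap):
Isg15: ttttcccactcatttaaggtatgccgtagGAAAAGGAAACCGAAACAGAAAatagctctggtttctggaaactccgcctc
Ifit1: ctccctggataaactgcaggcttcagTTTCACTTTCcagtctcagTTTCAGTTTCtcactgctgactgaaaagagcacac
Ifit3: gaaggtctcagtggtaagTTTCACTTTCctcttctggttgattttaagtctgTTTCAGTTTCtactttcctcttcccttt
The Isg15 stretch is chr4:156200846-156200925 on the minus strand and holds 3 overlapping copies. The Ifit1 stretch is chr19:34640759-34640838 and the Ifit3 stretch chr19:34583355-34583434, both on the plus strand, each with 2 copies on the reverse strand. Ifit1 and Ifit3 thus carried the same count of copies and the same 2 core sequences, with chase-to-pulse ratios of 1.02 and 1.69.

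Among the gamma type genes, the guanylate binding proteins (Gbp), large GTPases that attack the vacuoles of intracellular microbes, spread from 1.23-fold to 4.93-fold. Gbp6 measured 8.35 CPM in pulse and 29.6 CPM in chase (ratio 3.54, 3.07 to 4.10). Gbp5, whose protein is tied to inflammasome activation, measured 11.7 and 35.0 CPM (ratio 2.98, 2.64 to 3.38). Gbp2 measured 50.1 and 93.5 CPM (ratio 1.87, 1.75 to 1.99). Gbp4 was scarce, with 18 pulse and 72 chase UMIs or 0.580 and 2.86 CPM, and its ratio of 4.93 had a wide interval (2.91 to 8.79). The 2 Gbp genes that were not called were Gbp7, at 69.4 and 87.5 CPM (ratio 1.26, 1.19 to 1.34), and Gbp3, at 38.8 and 47.6 CPM (ratio 1.23, 1.13 to 1.33). The genes called and not called were not apart in the genome: Gbp5, Gbp7, Gbp3 and Gbp2 lie side by side between chr3:142493978-142522344 (Gbp5) and chr3:142620602-142638008 (Gbp2).

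The immunity-related GTPases, smaller interferon-induced GTPases that act on the same vacuoles, gave most of the UMIs of the gamma type group. Iigp1, an effector GTPase of this family, measured 365 CPM in pulse and 1064 CPM in chase (ratio 2.92, 2.85 to 2.98). Without Iigp1 the gamma type group measured 590 and 1041 CPM, a ratio of 1.76 (1.73 to 1.80). Irgm2 measured 47.6 and 95.2 CPM (ratio 2.00, 1.87 to 2.14), Igtp 28.7 and 54.1 CPM (ratio 1.89, 1.73 to 2.06) and Ifi47 62.2 and 95.7 CPM (ratio 1.54, 1.45 to 1.63). Irgm1, a regulator of the effector GTPases, measured 35.0 and 52.2 CPM, and its ratio of 1.49 (1.38 to 1.62) stopped just short of the limit. Tgtp1 measured 0.0967 CPM in pulse and 0.437 CPM in chase, with too few UMIs for a call. All but Gbp3, Gbp7, Irgm1 and Tgtp1 of the gamma type genes were thus called higher.

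Irf1, the transcription factor of the gamma type group, measured 238 CPM in pulse and 447 CPM in chase (ratio 1.88, 1.83 to 1.94). It lies at chr11:53770014-53778374 on the plus strand, on the chromosome that also holds Irgm1, Tgtp1, Ifi47, Igtp and Irgm2. Its ratio was close to those of Gbp2 and Igtp.

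The gamma type promoters are shown for 3 immunity-related GTPase genes whose 2 motifs had the same spacing, for Irf1 with a GAS-type motif alone and for Gbp7 with both kinds at other spacings, again as 80 bases upstream of the start with motifs in capitals:
Igtp: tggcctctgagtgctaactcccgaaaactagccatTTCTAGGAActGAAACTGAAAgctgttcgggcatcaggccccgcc
Irgm2: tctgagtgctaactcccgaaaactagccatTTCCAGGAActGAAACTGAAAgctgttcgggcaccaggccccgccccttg
Tgtp1: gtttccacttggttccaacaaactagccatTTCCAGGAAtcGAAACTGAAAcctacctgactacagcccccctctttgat
Irf1: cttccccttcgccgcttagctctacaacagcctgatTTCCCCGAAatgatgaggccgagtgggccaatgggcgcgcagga
Gbp7: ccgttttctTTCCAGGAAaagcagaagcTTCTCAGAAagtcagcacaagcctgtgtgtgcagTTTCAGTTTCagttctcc
The stretches are chr11:58199476-58199555 (Igtp), chr11:58214872-58214951 (Irgm2), chr11:53769888-53769967 (Irf1) and chr3:142530221-142530300 (Gbp7) on the plus strand, and chr11:48992285-48992364 (Tgtp1) on the minus strand. In Igtp, Irgm2 and Tgtp1 the ISRE-type motif begins 11 bases after the first base of the GAS-type motif. This spacing was noticed in these promoters and then counted in the whole table, where 5 of 27025 genes had it (0.0185%): the 3 shown, Tgtp2 and Gm12185. All 5 lie on chromosome 11. The shown stretches of Igtp and Irgm2 are nearly the same, so the 5 genes are not independent cases. The genes with this pair that had enough UMIs in adipogenic CAR-like cells, Igtp, Irgm2 and Tgtp2, had ratios of 1.89, 2.00 and 4.68. Gamma type genes with a motif but not the pair ran from 1.23 (Gbp3) to 2.98 (Gbp5), an overlapping range. Whether the pair bears on the ratio was not tested.

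Among the remaining genes the pathway's own factors were somewhat higher and the most abundant gene was lower. Irf7, a factor that amplifies type I interferon transcription, measured 55.6 CPM in pulse and 83.5 CPM in chase and was just over the limit (ratio 1.5, 1.41 to 1.60), a call lost in 2 of 7 other settings. Stat2, a transducer of the type I interferon signal, measured 49.1 and 72.2 CPM (ratio 1.47, 1.37 to 1.58). Irf9, the DNA-binding partner of STAT2, measured 38.2 and 48.7 CPM (ratio 1.28, 1.18 to 1.38). Ifih1, which encodes the RNA sensor MDA5, measured 42.8 and 58.2 CPM (ratio 1.36, 1.26 to 1.47). These 4 were all above 1, and only Irf7 was called.

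Bst2, which encodes the virus-tethering protein tetherin, measured 663 CPM in pulse and 517 CPM in chase (ratio 0.779, 0.762 to 0.797). Of the 33 genes it had the lowest ratio among those with at least 50 UMIs, and without a 1.5-fold change it was not called. Ifi44 measured 26.8 and 35.8 CPM (ratio 1.34, 1.22 to 1.47). Usp18, which removes ISG15 and restrains IFNAR2, measured 15.1 and 18.4 CPM (ratio 1.22, 1.07 to 1.39). None of the other genes was called: Rtp4 measured 75.1 and 89.5 CPM (ratio 1.19, 1.12 to 1.26), and Xaf1 51.5 and 56.7 CPM (ratio 1.10, 1.02 to 1.18). Ifi35 measured 52.9 and 50.7 CPM (ratio 0.959, 0.890 to 1.03). Rsad2, which encodes the antiviral enzyme viperin, measured 8.22 and 8.07 CPM (ratio 0.982, 0.812 to 1.18). Ifi27l2a measured 12.7 and 15.9 CPM (ratio 1.25, 1.09 to 1.44), and its direction turned under 3 of 7 other settings. Oas1a turned under 4 settings and Rsad2 under 1.

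Some genes share sequence with relatives, and their counts could be split between copies. For each gene the last 500 bases of its transcripts, where the 3′ kit places its reads, were cut into all 31-base words and looked up in the transcripts of other genes. Gbp6 shared 94.2% of its words with other genes (mostly with the predicted gene Gm43302), Tgtp1 85.1% (mostly Tgtp2) and Oas1a 70.0% (Oas1g). Ifit3 shared 24.0% with Ifit3b, and Gbp4 shared 22.2%, mostly with Gbp6. Iigp1 shared 0.636%, and Irf1, Irgm2, Igtp, Bst2 and Irf7 shared 0%. In the annotation Irgm2 and Igtp overlap on the same strand. So do Gbp4 with Gbp8 and Gbp9, Gbp6 with Gm43302, Gbp7 with Gm43802 and Tgtp1 with Gm12185. Ifi47 with Olfr56, Irf9 with Rnf31 and Rtp4 with Gm45338 do as well, so these counts are uncertain. Reads of the near copies are a further limit on Tgtp1, whose relative Tgtp2 had 226 pulse and 857 chase UMIs in adipogenic CAR-like cells.

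Upstream of these genes, the interferon gamma gene itself was, among the 10 classes, found almost wholly in the T or NK-like class. It was far higher there in chase. Ifng measured 49.4 CPM in pulse (63 UMIs, interval 38.0 to 63.3) and 512 CPM in chase (735 UMIs, 475 to 550). In cells thinned at random to 2000 UMIs each, so that depth is equal, Ifng was seen in 18 of 367 pulse cells (4.90%, 2.93 to 7.64) and 104 of 321 chase cells (32.4%, 27.3 to 37.8). Without thinning it was seen in 7.44% and 41.1%, at median depths of 2639 and 3784 UMIs. Carried-over free RNA can be read from adipogenic CAR-like cells: at the same 2000 UMIs, 0 of 3510 pulse cells had an Ifng UMI, which allows a share of up to 0.0855%, and 1 of 3430 chase cells did (0.0292%).

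The T or NK-like class was nearly all T cells by its markers, since 11 pulse and 6 chase cells had the NK markers Ncr1 or Klrb1c with no Cd3 gene. Cells with a Cd3 gene and no Foxp3 or Ctla4 had 34.6 CPM of Ifng in pulse and 528 CPM in chase. Cells with a Cd3 gene together with Foxp3 or Ctla4 had 34.1 and 489 CPM. Either marker was enough, so this gate does not define regulatory T cells. Both kinds of cell were thus higher in chase. The share of cells with Ifng differed there: without thinning, 102 of 204 chase cells (50%) of the first kind had it and 30 of 121 (24.8%) of the second. In pulse these were 14 of 205 (6.83%) and 13 of 212 (6.13%). The 11 pulse cells with NK markers alone held 21 of the 63 pulse UMIs of Ifng. Type I interferon genes were at the other extreme: of Ifna1, Ifna2, Ifna4, Ifnb1, Ifnk and Ifne, the only UMI in the 10 classes was 1 of Ifna2 in pulse monocyte or macrophage-like cells. The 3-count floor of that class was 0.282 CPM in pulse and 0.243 CPM in chase, and lower levels were not detectable at this depth. Ifng in the 9 classes other than T or NK-like was between 0 and 1.51 CPM. Dendritic-like cells (32 pulse and 41 chase cells) and ungated cells (867 and 715) lie outside the 10 classes. Their interferon genes were not counted, and further Ifna genes were not looked up. Absence of type I interferon transcripts from the libraries is therefore not shown.

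Receptor genes were present in adipogenic CAR-like cells of both libraries. Ifngr1 measured 246 CPM in pulse and 242 CPM in chase (ratio 0.983, 0.951 to 1.02), and Ifngr2 137 and 97.9 CPM (ratio 0.712, 0.677 to 0.748). Ifnar1 measured 55.3 and 48.1 CPM (ratio 0.870, 0.808 to 0.937), and Ifnar2 268 and 338 CPM (ratio 1.26, 1.22 to 1.30). None of these 4 receptor genes reached 1.5-fold. Of the kinases, Jak2, which IFNGR2 carries, was called higher at 33.9 and 54.5 CPM (ratio 1.61, 1.48 to 1.75), whereas Jak1 measured 202 and 203 CPM (ratio 1.00, 0.967 to 1.04) and Tyk2 9.35 and 9.89 CPM (ratio 1.06, 0.890 to 1.26).

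The signal transducers and regulators called higher included Irf8 and Socs3. Irf8, a transcription factor of the interferon regulatory factor family, measured 12.2 CPM in pulse and 34.5 CPM in chase (ratio 2.81, 2.49 to 3.18). Socs3, which is induced by cytokines that act through STAT3, measured 484 and 894 CPM (ratio 1.85, 1.81 to 1.88). The feedback inhibitor Socs1 measured 81.7 and 118 CPM and fell short of the limit (ratio 1.45, 1.37 to 1.53). Stat3 measured 173 and 224 CPM (ratio 1.29, 1.24 to 1.34) and Irf2 78.5 and 109 CPM (ratio 1.39, 1.32 to 1.47).

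Other lists in adipogenic CAR-like cells are read against the 7.02% of all genes called higher and 6.57% called lower. All 4 MHC class II genes and both CXCR3 ligand genes found (Cxcl9 and Cxcl10) were called higher. Of 13 genes for antigen processing on MHC class I, 3 were higher and 0 lower. Of 26 further interferon-induced genes with enough UMIs, 6 were higher and 0 lower. Of 13 nucleic acid sensors and adaptors, 1 was higher and 0 lower, near the share of all genes. Genes outside the interferon lists also differed: of 14 inflammatory genes 12 were higher and 1 lower, and of 15 immediate early genes 5 were higher and 1 lower. Over all 129 listed genes found, the largest ratios with at least 50 UMIs were those of Cxcl1 (5.72), Cxcl10 (5.01) and Tgtp2 (4.68), and the smallest those of Lcn2 (0.524), Atf3 (0.528) and Slfn2 (0.670). Lcn2 is also a neutrophil marker of the gate. Those markers summed to 2821 CPM in pulse and 1488 CPM in chase in these cells, and their part in the Lcn2 ratio was not tested. Inflammatory and immediate early genes can also respond to tissue digestion, and the part of handling in these values was not tested.

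Other measures moved with the library in the same cells. Median depth was 8145 UMIs in pulse and 6591 UMIs in chase. Ribosomal protein genes summed to 86428 CPM in pulse and 70307 CPM in chase. The 10 neutrophil markers summed to 2821 and 1488 CPM, with all 10 markers at a UMI or more in both libraries, and the T or NK markers to 8.25 and 4.69 CPM, with all 15 present in both. Other marker sums were higher in chase: the 5 primary granule progenitor markers summed to 27.3 and 77.0 CPM, the 9 erythroid markers to 195 and 320 CPM and the 7 osteocyte markers, with Sost at 0, to 21.6 and 40.7 CPM. The part of these differences in the interferon-stimulated genes was not tested.

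Osteogenic CAR-like cells, gated on Alpl, Wif1, Spp1 and other early bone genes, had less of all 3 groups than adipogenic CAR-like cells of the same library. They numbered 608 in pulse and 444 in chase. The gamma type genes measured 327 CPM in pulse and 636 CPM in chase, which was 0.343 (0.328 to 0.359) and 0.302 (0.290 to 0.314) of the adipogenic level. Type I type genes measured 156 and 183 CPM, or 0.607 (0.567 to 0.649) and 0.655 (0.606 to 0.707) of the adipogenic level. The gap was thus wider for the gamma type genes in each library. Inside a library both classes share the preparation, so that this comparison was made once per library, with no mouse as replicate.

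In pulse, 21 of 30 genes were lower in the osteogenic class and 1 was higher, where the rule called 12.6% of all genes lower and 11.5% higher. In chase, 20 of 31 were lower and 0 higher, beside 13.3% and 11.7% of all genes. The lower genes included 11 of 11 gamma type genes in pulse and 10 of 12 in chase. Iigp1 measured 68.2 CPM in pulse osteogenic cells, 0.187 of the adipogenic level (0.169 to 0.206), and 203 CPM in chase, 0.191 (0.178 to 0.205). Irf1 measured 77.8 and 130 CPM, 0.327 (0.298 to 0.359) and 0.290 (0.265 to 0.317) of the adipogenic level. Isg15 was at 0.60 and 0.537, Ifit1 at 0.491 and 0.742 and Bst2 at 0.505 and 0.835 of the adipogenic level. Only Ifi27l2a was called higher, at 1.71 in pulse (1.39 to 2.08), and in chase its ratio was 0.793 (0.579 to 1.07). Irf9 was near level, at 0.932 and 1.08. Adipoq, a gene of adipogenic CAR-like cells, measured 296 CPM (pulse) and 231 CPM (chase) in the osteogenic class, against 1946 and 2067 CPM in the adipogenic class. The part of free adipogenic RNA or mixed cells in the osteogenic values, such as those of Iigp1, was not tested.

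**Figure D2:**
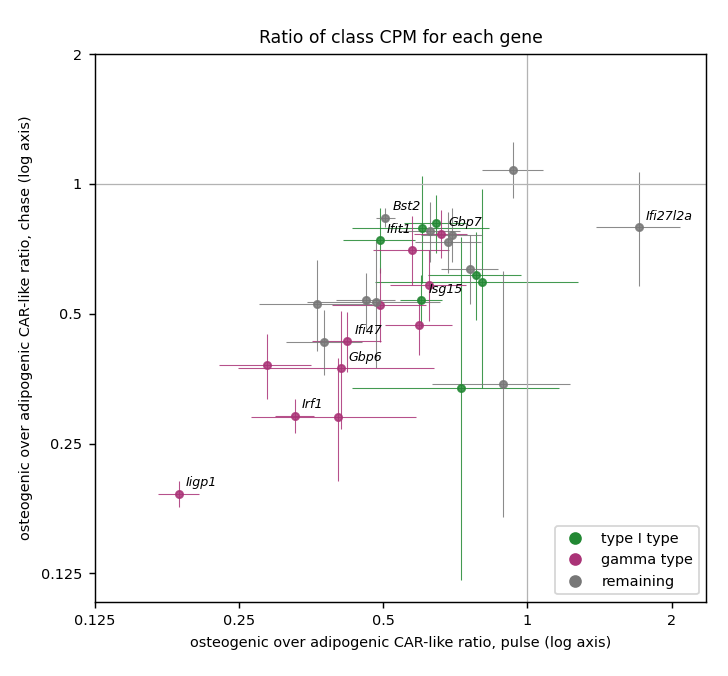
Ratio of CPM in osteogenic over adipogenic CAR-like cells for 30 interferon-stimulated genes with at least 50 UMIs in each library, pulse on the horizontal and chase on the vertical axis, both log; bars are exact 95% intervals for counting error. Below 1 in both libraries lie 28 of the 30 genes, and Iigp1 sits lowest on both axes (0.187 and 0.191).

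From pulse to chase 9 of 11 gamma type genes with enough UMIs were higher in the osteogenic class, with 2 of 5 type I type and 3 of 12 remaining genes. The group ratio was 1.94 (1.83 to 2.06) for gamma type and 1.17 (1.06 to 1.29) for type I type genes. Of 28 genes with enough UMIs, 14 were higher and 2 lower (5.98% and 6.21% of all genes). The higher genes included Gbp6 (3.24-fold, 1.89 to 5.74), Iigp1 (2.98-fold, 2.65 to 3.36), Gbp2 (2.48-fold, 1.89 to 3.27), Igtp (2.01-fold) and Irf1 (1.67-fold, 1.47 to 1.89). The part of free adipogenic RNA in these ratios, Iigp1 included, was not tested. Ifit1, level in adipogenic cells, was 1.54-fold higher here (1.21 to 1.95). Rsad2 (0.378, 0.176 to 0.743) and Ifi27l2a (0.582, 0.412 to 0.811) were lower.

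Osteoblast-like cells, with 397 pulse and 300 chase cells, had the lowest measured gamma type level of the 10 classes in each library, and both groups were higher in chase. The gamma type genes measured 94.9 CPM in pulse and 167 CPM in chase (ratio 1.76, 1.61 to 1.93). The type I type genes measured 9.11 CPM (81 UMIs) and 26.4 CPM (156 UMIs), a ratio of 2.90 (2.20 to 3.84). Markers of other cell types were also higher in these chase cells: the 10 neutrophil markers summed to 1846 and 4863 CPM, the 5 primary granule progenitor markers to 14.2 and 86.3 CPM and the 13 monocyte or macrophage markers to 194 and 289 CPM, each marker with a UMI in both libraries. Their part in the osteoblast-like values was not tested. Of 19 genes with enough UMIs 15 were higher and 2 lower (7.17% and 3.03% of all genes). Isg15 measured 3.49 and 7.28 CPM (2.09-fold), Stat2 4.05 and 10.5 CPM (2.59-fold) and Irgm2 6.19 and 15.1 CPM (2.44-fold). The 2 lower genes were Gbp2 (12.8 and 5.93 CPM) and Ifi27l2a (11.9 and 4.06 CPM). Free RNA was gauged by Adipoq, a gene of adipogenic CAR-like cells: it stood in osteoblast-like cells at 1.80% (pulse) and 1.37% (chase) of its adipogenic level, and the same percentages of the adipogenic type I level are 4.62 and 3.82 CPM. Less this gauge, the gamma type level of osteoblast-like cells was 77.8 and 138 CPM, above the 50.8 and 37.7 CPM of neutrophil-like cells. The tdTomato level of osteoblast-like cells also differed, at 385 CPM in pulse and 1445 CPM in chase, and its part in these values was not tested.

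Endothelial-like cells (382 and 334 cells) had the highest gamma type level of the 10 classes in both libraries. The group measured 1412 CPM in pulse and 2348 CPM in chase (ratio 1.66, 1.60 to 1.73), of which Iigp1 gave 728 and 1288 CPM. The type I type genes measured 101 and 170 CPM (ratio 1.68, 1.45 to 1.93), so that type I over gamma was level (ratio 1.01, 0.871 to 1.17). Of 31 genes with enough UMIs, 17 were higher and 1 lower (3.67% and 2.68% of all genes). Rsad2 measured 59.1 and 130 CPM (2.20-fold, 1.84 to 2.63), Ifit3 11 and 27.6 CPM (2.52-fold, 1.67 to 3.85) and Isg15 27.1 and 52.3 CPM (1.93-fold, 1.47 to 2.54). Tgtp1 reached 7.31 and 11.5 CPM here, its highest level in any class. Adipoq stood at 8.05% and 6.90% of its adipogenic level, and those percentages of the adipogenic gamma type level are 76.8 and 145 CPM, far under the measured values.

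Monocyte or macrophage-like cells (1364 and 1260 cells) paired a gamma type ratio like that of the adipogenic CAR-like cells with a small type I type ratio. The gamma type genes measured 383 and 852 CPM (ratio 2.22, 2.14 to 2.31) and the type I type genes 160 and 212 CPM (ratio 1.32, 1.24 to 1.41). All 12 gamma type genes with enough UMIs were called higher, against 1 of 8 type I type genes. Over all 33 genes 16 of 32 were higher and 0 lower (2.96% and 4.59% of all genes). Gbp4 measured 1.22 and 10.9 CPM (8.93-fold, 5.05 to 17.2), Iigp1 50.5 and 157 CPM (3.11-fold, 2.83 to 3.43) and Irf1 61.1 and 148 CPM (2.43-fold, 2.22 to 2.66). Oas2, nearly absent from CAR-like cells, measured 19.6 and 20.6 CPM here, and Oas1a 16.1 and 11.4 CPM.

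T or NK-like cells (430 and 333 cells), the class with Ifng, had 610 CPM of gamma type genes in pulse and 1074 CPM in chase (ratio 1.76, 1.62 to 1.92). Its type I type genes measured 98.9 and 130 CPM (ratio 1.32, 1.04 to 1.66). Of 23 genes with enough UMIs 13 were higher and 0 lower (8.52% and 6.39% of all genes), among them 10 of 12 gamma type genes. Igtp measured 80.8 and 152 CPM, Gbp4 53.4 and 87.7 CPM and Gbp6 20.4 and 47.3 CPM, and all 3 were at their highest in this class in both libraries. Ifi27l2a measured 1026 CPM in pulse and 945 CPM in chase, also the highest of the 10 classes. In B cell-like cells it measured 779 and 240 CPM (ratio 0.309, 0.269 to 0.353).

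B cell-like cells (511 and 153 cells) had a gamma type ratio below 1 with an interval that included 1. The group measured 209 and 176 CPM (ratio 0.843, 0.701 to 1.01), and the type I type genes rested on 45 and 18 UMIs. Of 10 genes with enough UMIs, 0 were higher and 3 lower (11.5% and 18% of all genes): Irf1 (66.6 and 44.0 CPM), Ifi35 (61.6 and 29.9 CPM) and Ifi27l2a. The median depth of the class differed too, at 2167 UMIs in pulse and 3769 UMIs in chase. Its tdTomato level was 889 CPM in pulse and 201 CPM in chase. Of 11 immediate early genes 10 were lower in chase, and of 8 inflammatory genes 7 were, beside the 18% of all genes. The part of these differences in the B cell-like values was not tested.

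Neutrophil-like cells (606 and 418 cells) had a gamma type ratio of 1.58 (1.43 to 1.74) at low levels, 128 and 201 CPM. Adipoq stood in them at 8.04% and 7.77% of its adipogenic level, and those percentages of the adipogenic gamma type level are 76.8 and 163 CPM. For Iigp1 the measured 25.7 and 75.1 CPM lay below the corresponding 29.3 and 82.6 CPM. Without Iigp1 the group ratio was 1.24 (1.10 to 1.39). Less this gauge, the gamma type level was 50.8 CPM in pulse and 37.7 CPM in chase, so the direction depends on whether the gauge is subtracted. The gauge rests on Adipoq alone and has no interval. The part of free RNA in the neutrophil-like values was not tested. Type I type genes were lower in chase, at 91.5 and 72.4 CPM (ratio 0.791, 0.686 to 0.910). Of 23 genes the rule called 2 higher (Irgm2 and Iigp1) and 3 lower (Ifit1, Rsad2 and Bst2), beside 3.97% and 7.48% of all genes.

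Primary granule progenitor-like cells (123 and 362 cells) had 134 and 211 CPM of gamma type genes (ratio 1.58, 1.41 to 1.76) and 25.0 and 23.8 CPM of type I type genes (ratio 0.952, 0.725 to 1.26). Of 20 genes, 8 were higher and 0 lower (2.91% and 2.77% of all genes), 6 of them gamma type genes such as Gbp2 (3.12 and 9.92 CPM) and Gbp5 (4.86 and 10.5 CPM). Erythroid-like cells (76 and 67 cells) were the class with more type I than gamma type UMIs in both libraries (type I over gamma 1.86 and 1.19). That order rested on Isg15, at 208 and 179 CPM: without it the type I type genes measured 37.8 and 43.1 CPM, under the 132 and 188 CPM of the gamma type genes. Isg15 was at its highest level of the 10 classes there, as was Rsad2, with 471 and 252 CPM (ratio 0.535, 0.441 to 0.647). The 10 neutrophil markers summed to 6170 CPM in pulse and 287 CPM in chase erythroid-like cells, with Cxcr2 at 0 in chase, and their part in these values was not tested. Of 6 genes with enough UMIs, 0 were higher and 2 lower (11.3% and 6.98% of all genes), the other being Bst2.

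**Figure D3:**
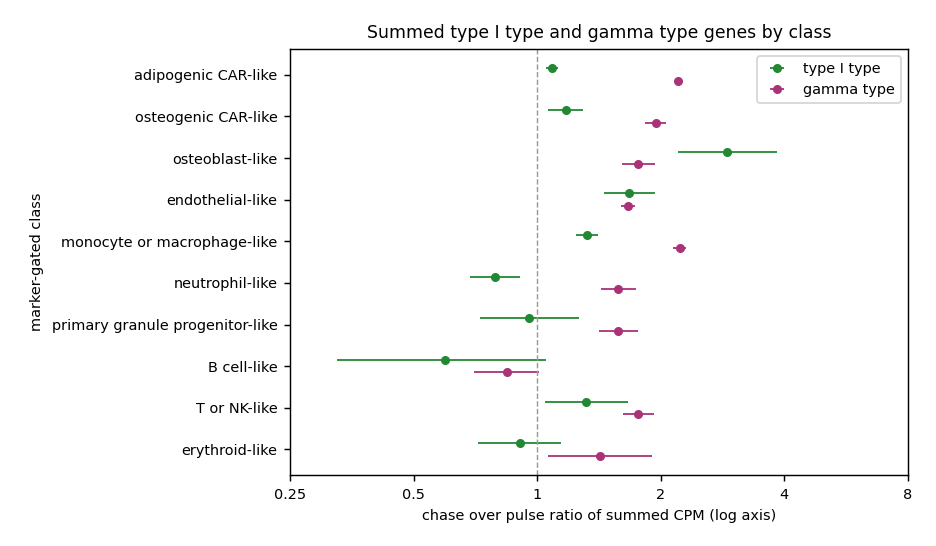
Chase-to-pulse ratio of the summed type I type (green) and gamma type (magenta) genes in 10 marker-gated classes, on a log axis; bars are exact 95% intervals for counting error and the dashed line marks 1. The measured gamma type ratio lies between 1.42 and 2.22 in 9 classes and at 0.843 in B cell-like cells, and the type I type ratio lies between 0.595 and 2.90. Free RNA is not subtracted, and for neutrophil-like cells the direction depends on whether it is. The erythroid-like ratio of 1.42 was 1.26 (0.934 to 1.72) without Iigp1.

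Read across classes, the genes of a group did not share 1 source. The class with the highest level was the same in both libraries for 25 of the 33 genes. Among type I type genes, Ifit1 and Ifit3 were highest in adipogenic CAR-like cells, Ifit2, Oas1a and Oas2 in monocyte or macrophage-like cells, Ifit3b in endothelial-like cells and Isg15 in erythroid-like cells. Among gamma type genes, Irf1 and Irgm2 were highest in adipogenic CAR-like cells, Iigp1, Gbp7, Irgm1 and Tgtp1 in endothelial-like cells and Gbp4, Gbp6 and Igtp in T or NK-like cells. Some of these orders rest on close values. In pulse, Ifit3 measured 19.6 CPM in adipogenic CAR-like and 19.1 CPM in monocyte or macrophage-like cells. Irgm2 in pulse measured 47.6 CPM in adipogenic CAR-like and 46.0 CPM in endothelial-like cells. Gbp7 in chase measured 216 CPM in endothelial-like and 196 CPM in T or NK-like cells. Gbp4 was far apart between classes, at a pulse level of 41.7 CPM in endothelial-like and 0.580 CPM in adipogenic CAR-like cells.

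**Figure D4:**
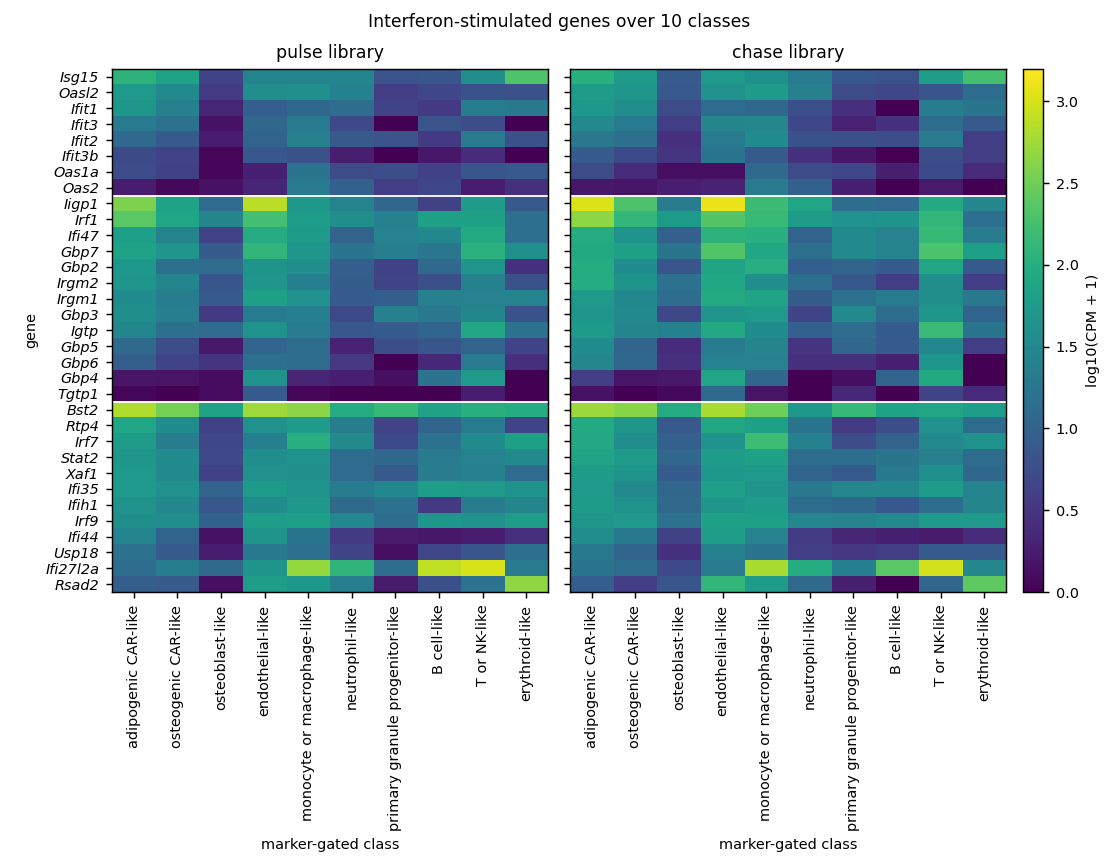
Level of 33 interferon-stimulated genes in 10 classes of the pulse (left) and chase (right) library, as log10(CPM + 1); white lines part the type I type, gamma type and remaining genes. Bright cells include Iigp1 in endothelial-like and adipogenic CAR-like cells, Ifi27l2a in T or NK-like cells and Rsad2 in erythroid-like cells.

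How each group was spread over adipogenic CAR-like cells was compared between the libraries, not between the groups, which differ in gene number and level. Thinning was to 2000 UMIs per cell, and the 122 pulse and 242 chase cells below that depth were dropped. At least 3 of the gamma type genes were seen in 488 of 3510 pulse cells (13.9%, 12.8 to 15.1) and 1009 of 3430 chase cells (29.4%, 27.9 to 31). Without Iigp1 the shares were 6.95% and 16.4%. At least 3 of the type I type genes were seen in 61 of 3510 pulse cells (1.74%, 1.33 to 2.23) and 81 of 3430 chase cells (2.36%, 1.88 to 2.93), and these intervals overlap. Without thinning the gamma type shares were 65.2% and 68.4% and the type I type shares 14.3% and 13.3%, at the unequal depths given above. B cell-like cells had at least 3 type I type genes in 0 of 302 pulse and 0 of 142 chase cells after the same thinning, at median depths of 2167 and 3769 UMIs. Adipoq stood in them at only 1.26% and 0.814% of its adipogenic level. In neutrophil-like cells, with Adipoq at 8.04% and 7.77%, it was 6 of 577 pulse (1.04%, 0.383 to 2.25) and 2 of 406 chase cells (0.493%, 0.0597 to 1.77). How much of any of these shares is background was not tested.

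**Figure D5:**
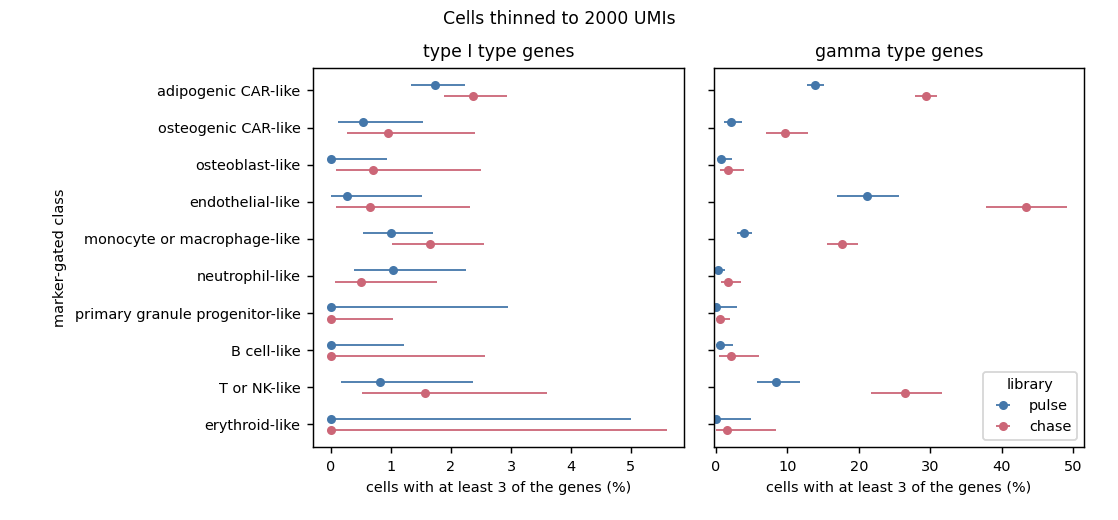
Percentage of cells with at least 3 type I type (left) or gamma type (right) genes after thinning each cell to 2000 UMIs, by class and library; bars are exact 95% binomial intervals. The gamma type share is higher in chase in adipogenic CAR-like (13.9% and 29.4%), endothelial-like (21.1% and 43.4%) and monocyte or macrophage-like cells (3.90% and 17.6%), while the type I type intervals of the libraries overlap in each class.

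The richest 5% of thinned adipogenic CAR-like cells held 37.8% of the type I type UMIs in pulse and 37.3% in chase, and 24.3% and 26.9% of the gamma type UMIs. A single cell held up to 22 type I type UMIs in pulse and up to 74 gamma type UMIs in chase, out of 2000. Cells with no UMI of a group made up 68.4% (pulse) and 67.7% (chase) for type I type and 24.5% and 13.7% for gamma type genes, where an even Poisson spread of the same UMIs gives 59.9% and 58.7%, and 14.2% and 1.68%. The variance over cells was 6.43 in pulse and 29.8 in chase for gamma type UMIs, at means of 1.95 and 4.09 per cell. For type I type UMIs it was 1.34 and 1.14, at means of 0.512 and 0.533. Even in a Poisson spread the variance rises with the mean, and the gamma type means differed between the libraries. The variances therefore do not tell a wider spread among chase cells from a higher level. Without Iigp1 the richest 5% held 22.3% (pulse) and 21.8% (chase) of the gamma type UMIs.

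Cells rich in one group were often rich in the other. Of the 61 pulse cells with at least 3 type I type genes, 33 (54.1%, 40.8 to 66.9) had at least 3 gamma type genes, against 455 of the 3449 other cells (13.2%, 12.1 to 14.4). In chase this was 63 of 81 cells (77.8%, 67.2 to 86.3) against 946 of 3349 (28.2%, 26.7 to 29.8). The interferon-induced chemokine gene Cxcl10 was seen more often in the same cells: 21.3% of the 61 pulse cells and 33.3% of the 81 chase cells had a Cxcl10 UMI, against 1.48% and 8.18% of the other cells. These cells are a range cut from a count and not a cell type, and cells of 1 library are not replicates.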

How the data were processed

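Both deposited matrices give UMI counts, not normalized, for each gene in each barcode. Libraries were prepared by the 10x 3 prime chemistry 3.1 (per the labels). Cell Ranger appears as 6.0.2 per the file headers and as 2.1.1 in the submitters' processing notes. The build was mm10 per those notes. Feature files and barcode files, which the authors deposited beside the counts, hold names only.

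A barcode passed with 500 genes or more, 1000 UMIs or more and mitochondrial UMIs below 10%. Scrublet (scanpy 1.11.5) was run per library. Its automatic threshold marked 5 pulse and 98 chase cells, so a score of 0.25 was used, which removed 210 (2.24%) and 123 (1.46%). A class needed a scaled marker score of at least 0.5, a lead of 0.1 over the next class and 3 detected markers, and 867 and 715 cells stayed ungated. Leiden clusters (leidenalg 0.10.2) were made without the interferon-stimulated genes. UMIs were summed per class and library, with 1 library per group and thus no test. Ratios carry exact conditional 95% intervals (scipy 1.17.1), log2 ratios a prior count of 0.5, and a count of 0 a floor of 3 counts. The ratio step was tested on simulated data. Promoters and gene names came from RefSeq, positions from GENCODE vM21.

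The genes named are all 34 listed. Other genes are named as interferon ligands, receptors or transducers, or as the 3 highest and 3 lowest ratios of the lists. One gene of the transducer list is not reported here. Members, groups and lists were chosen with earlier results of these data known. The motif spacing, the T cell subsets and the cells with 3 or more type I type genes crossed with Cxcl10 were chosen after their values were seen. Alternatives covered filters, doublets, gates, clusters, TMM scaling (edgeR 4.0.16), thresholds and thinning. Cells, mice and library preparations within a group could not be separated, so every interval covers counting error only.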

Additional observations from a re-analysis of the deposited data

How the results depend on the processing

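No paired analysis was possible because each group had 1 library. Among the 11 results reported below, each run under 7 to 10 alternatives, no ratio reversed direction. The count of genes lower in chase stayed at 0. A share or a count is a single value with no direction to reverse, and the order of the shares between the libraries is given below. The following moved by more than their counting interval. A stricter cell filter gave osteogenic over adipogenic ratios in chase of 0.593 (type I type) and 0.266 (gamma type). A stricter gate gave 0.582 and 0.268 for these, 0.301 for the gamma type genes in pulse, 1.13 for the type I type chase-to-pulse ratio and 0.516 for type I over gamma. Classes by cluster majority gave 2.26 for the gamma type chase-to-pulse ratio and 0.330 for the chase osteogenic ratio, which was 0.286 with TMM scaling. A 2-fold limit left 5 genes higher in place of 13. A gamma type group of the Gbp genes, Irgm1, Irgm2 and Irf1 alone gave 1.78 for chase over pulse, 0.608 for type I over gamma, and 0.438 (pulse) and 0.407 (chase) for osteogenic over adipogenic. Without the gene with the most UMIs, the type I type ratio was 1.22, the gamma type ratio 1.76 and type I over gamma 0.690. The share of cells with at least 3 type I type genes was 5.30% (pulse) and 6.57% (chase) at 4000 UMIs, 14.3% and 13.3% without thinning, and 7.32% and 8.37% for at least 2 genes, so its order between the libraries turned without thinning. The cause of each was not tested, beyond what the construction of the setting changes. Leaving out the 52 shared barcodes, chosen after the data were seen, left 12 genes higher in place of 13 and moved no other of the 11 results past its interval. Of the single genes, Irf7 lost its call in 2 of 7 settings (the stricter cell filter and without the shared barcodes), Irgm1 gained one in 2 and Stat2 in 1. Levels below 0.0967 CPM (pulse) and 0.119 CPM (chase), the 3-count floors of adipogenic CAR-like cells, were not detectable at this depth.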
